A study of Mus musculus with 12 samples.

Results

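The PDLIM, FHL and related Z-disc LIM proteins are encoded here by 10 genes, Pdlim1, Pdlim2, Pdlim3, Pdlim4, Pdlim5, Pdlim7, Ldb3, Csrp3, Fhl1 and Fhl2, picked by symbol from the 51826 rows of a gene count table of the mouse heart. Each symbol had 1 row, and all 10 genes had enough counts to be tested in each comparison. The study asked how RNA with expanded CUG repeats, the toxic RNA of myotonic dystrophy type 1, alters the heart. RNA-Seq libraries of poly(A)-selected RNA were made from the atria and the ventricles of 6 mice, giving 12 libraries in 4 groups of 3. The CUG960 +dox mice V119, V120 and V123 were homozygous for TREDT960I, a doxycycline-responsive transgene with interrupted CTG repeats in human DMPK exons, and hemizygous for MHCrtTA. The MHCrtTA +dox controls V327, V333 and V334 were hemizygous for MHCrtTA alone. All mice were FvB females of 10 weeks, given doxycycline chow from postnatal day 1, so that both genotypes carried the transactivator and received the drug. MHCrtTA is driven by the α myosin heavy chain promoter, so the repeat RNA is meant to be made in cardiomyocytes, while the libraries hold RNA of every cell type of the chamber. Libraries held between 116127966 and 160676189 counts, and the lowest count of any of the 10 genes in a library was 704. Depth separated the genotypes in both chambers. In atria the CUG960 libraries held at most 134863462 counts and the controls at least 136770774, and in ventricles the CUG960 libraries held at least 140987828 and the controls at most 133480610.

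A LIM domain is a zinc-binding fold through which proteins dock onto one another. In striated muscle many LIM proteins sit at the Z-disc, the structure that anchors actin filaments at the border of each sarcomere and takes part in sensing stretch. PDZ-LIM proteins tie α-actinin, through a PDZ domain, to kinases held by their LIM domains, FHL proteins consist of LIM domains alone and move between sarcomere and nucleus, and variants of LDB3, CSRP3 and FHL1 are known causes of human muscle and heart muscle disease.

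In CUG960 +dox mice, Pdlim7 was about a factor of 3 lower in both chambers, with a fold of 3.07 in atria and 2.93 in ventricles. Fhl2 rose 2.13-fold in atria, where its level is low, and had no change past the threshold in ventricles, where its level is high. Fhl1 fell 1.85-fold in atria. Pdlim3 and Pdlim4, which are more abundant in atria, rose 1.67-fold and 1.68-fold in ventricles. In atria Pdlim4 was higher too, under the fold limit (log2 fold change 0.4, adjusted P = 0.00873). In the main edgeR fit, Fhl2 passed the test of a difference between chambers, and Fhl1, Pdlim3 and Pdlim4 did not. The threshold here was an adjusted P value under 0.05 with a fold change of at least 1.5 in edgeR's quasi-likelihood test. In atria 3 of the 10 genes passed it, against 5.49% of the 17650 genes tested. The split was 1 gene higher, against 3.37% of genes, and 2 lower, against 2.12%. In ventricles 3 of 10 passed, against 4.75% of 16909 genes, with 2 higher against 3% and 1 lower against 1.76%. Without the fold limit the counts were 4 in atria, against 14.6% of genes, and 3 in ventricles, against 9.94%. Libraries of the genotypes did not overlap for 6 of the 10 genes in atria, against 35.7% of genes, and for 5 in ventricles, against 31.2%.

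The windows of 250 bases before the transcription start are shown for the 5 genes that passed the threshold between genotypes and for Ldb3, which holds a CArG box, since the start region is where a reader would look for a common element. RefSeq (GRCm38.p6) gave 14 windows for 9 of the 10 genes, with 2 starts each for Csrp3, Fhl1, Fhl2, Ldb3 and Pdlim5. Capitals mark matches, on either strand, to the MEF2 site, the CArG box bound by SRF, the MCAT element CATTCC or the TATA motif TATAAA. Both windows are shown for Fhl2, named upstream and downstream, and 1 for each of the others.
Fhl2 upstream start, chr1:43196762-43197011, minus strand: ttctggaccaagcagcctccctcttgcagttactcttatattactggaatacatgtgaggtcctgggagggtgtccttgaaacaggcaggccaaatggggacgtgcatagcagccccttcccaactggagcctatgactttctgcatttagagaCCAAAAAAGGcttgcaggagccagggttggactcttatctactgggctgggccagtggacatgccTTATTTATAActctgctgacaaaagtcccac
Fhl2 downstream start, chr1:43163962-43164211, minus strand: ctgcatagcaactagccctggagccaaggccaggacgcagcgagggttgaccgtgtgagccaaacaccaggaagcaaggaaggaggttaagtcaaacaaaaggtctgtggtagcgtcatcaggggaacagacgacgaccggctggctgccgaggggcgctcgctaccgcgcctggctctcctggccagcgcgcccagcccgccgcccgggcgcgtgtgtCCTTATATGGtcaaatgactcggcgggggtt
Fhl1, chrX:56779433-56779682, plus strand: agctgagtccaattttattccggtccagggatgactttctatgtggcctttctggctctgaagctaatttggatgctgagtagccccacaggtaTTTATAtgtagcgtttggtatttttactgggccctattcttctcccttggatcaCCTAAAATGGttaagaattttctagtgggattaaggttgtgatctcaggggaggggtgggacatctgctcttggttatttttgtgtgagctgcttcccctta
Ldb3, chr14:34588682-34588931, minus strand: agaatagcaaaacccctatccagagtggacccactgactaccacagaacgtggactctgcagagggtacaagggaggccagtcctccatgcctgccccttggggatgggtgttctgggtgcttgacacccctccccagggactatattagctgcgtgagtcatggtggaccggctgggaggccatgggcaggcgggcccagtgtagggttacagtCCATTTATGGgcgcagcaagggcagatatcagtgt
Pdlim3, chr8:45885237-45885486, plus strand: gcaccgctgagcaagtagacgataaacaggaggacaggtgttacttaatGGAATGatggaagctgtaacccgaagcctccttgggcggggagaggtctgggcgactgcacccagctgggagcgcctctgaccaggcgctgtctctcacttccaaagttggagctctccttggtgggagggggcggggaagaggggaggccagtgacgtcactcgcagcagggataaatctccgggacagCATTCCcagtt
Pdlim4, chr11:54069018-54069267, minus strand: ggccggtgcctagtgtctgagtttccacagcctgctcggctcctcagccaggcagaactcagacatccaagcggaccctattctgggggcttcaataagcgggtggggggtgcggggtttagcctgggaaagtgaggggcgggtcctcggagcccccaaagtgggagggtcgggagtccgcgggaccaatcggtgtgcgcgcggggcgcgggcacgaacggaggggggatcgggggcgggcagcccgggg
Pdlim7, chr13:55513447-55513696, minus strand: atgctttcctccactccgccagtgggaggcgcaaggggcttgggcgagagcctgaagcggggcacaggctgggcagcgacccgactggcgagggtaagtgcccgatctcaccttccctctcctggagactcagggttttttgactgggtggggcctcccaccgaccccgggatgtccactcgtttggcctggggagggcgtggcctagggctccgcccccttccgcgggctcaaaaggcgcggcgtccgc

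A CArG box was found in 5 of the 14 windows, those of Fhl2 and Ldb3 and the window of Fhl1 shown, and is present in 1.47% of all 32851 windows of this length. The windows of Ldb3 overlap and hold the same box, and the other Fhl1 window (chrX:56786277-56786526) held none of the 4 motifs. Counting from the start, it lay at bases -96 to -87 of the upstream Fhl2 window, at -31 to -22 of the downstream one, at -102 to -93 in Fhl1 and at -35 to -26 in Ldb3. The upstream Fhl2 window also held a MEF2 match at -31 to -22, which overlaps its TATA match at -28 to -23, and these motifs occur in 2.92% and 12.4% of all windows. TATA matches were also found at -156 to -151 in Fhl1 and at -78 to -73 in a Pdlim5 window that is not shown, so that 3 of the 14 windows held one. Pdlim3 held MCAT matches at -201 to -196 and at -11 to -6, against 12.6% of windows with at least 1. The windows of Pdlim7, Pdlim4, Pdlim1 and Csrp3 held none of the 4 motifs. Those of Pdlim7, Pdlim4 and Pdlim1 were 68.4%, 69.2% and 62.4% G and C, and those of Csrp3 48.4% and 51.2%, against a median of 52.4% over all windows. Such matches describe letters in these windows, and binding there was not measured.

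The plot of levels by library covers all 10 genes.

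**Figure D1:**
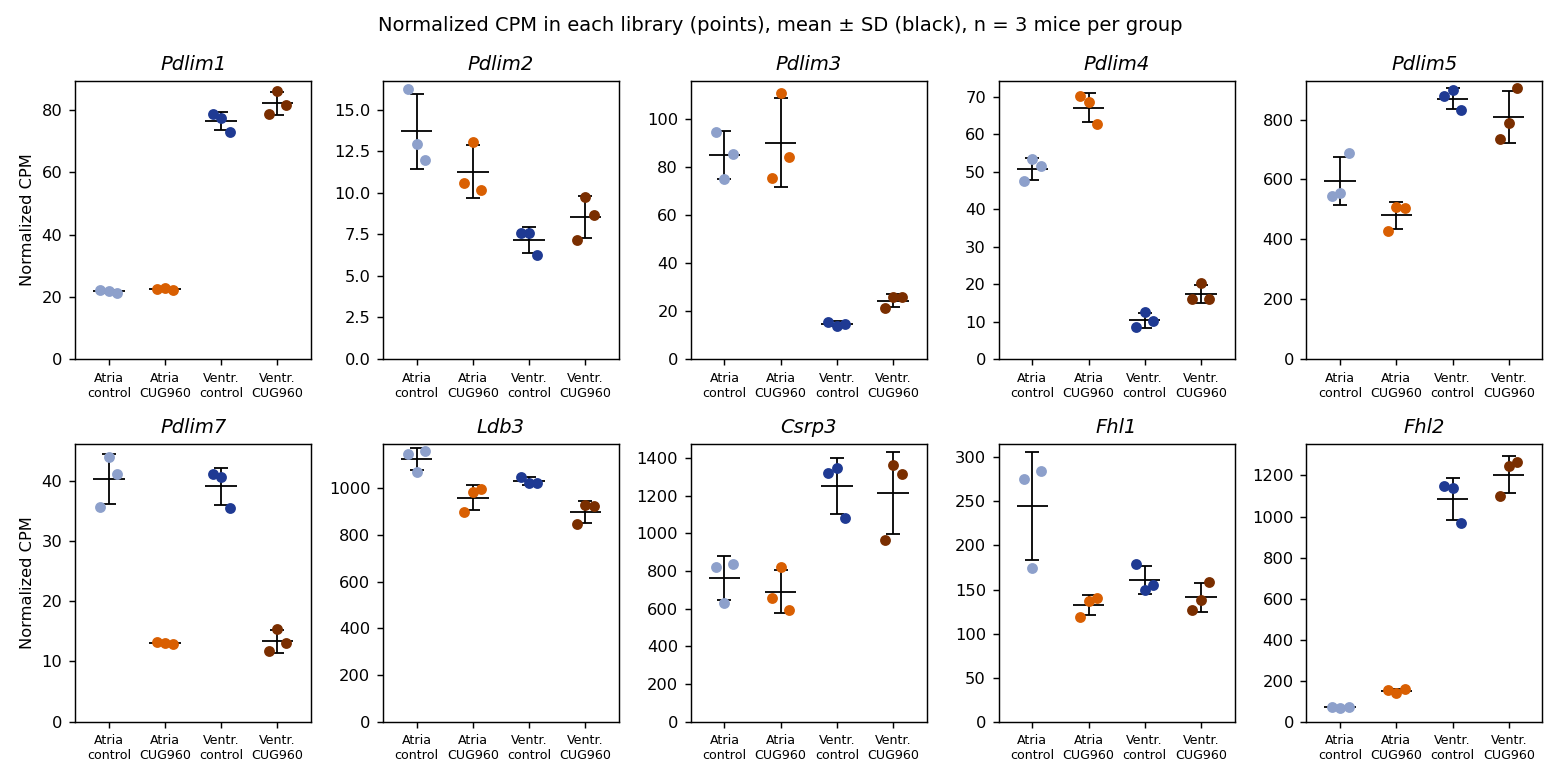
Normalized CPM of the 10 genes in each of the 12 libraries (points), with mean and SD of 3 mice per group in black and a y axis from 0 in each panel. The Pdlim7 points of CUG960 +dox mice lie at 15.3 CPM or below in both chambers and those of controls at 35.5 CPM or above.

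CPM here are counts scaled to the library size by edgeR's TMM factors over all 12 libraries. Values of single mice are given in the order V327, V333 and V334 for controls and V119, V120 and V123 for CUG960 +dox mice, and means are ± SD (n = 3 mice). With 3 mice per group, permuting the mice exactly allows no P value below 0.1, so adjusted P values rest on the spread that edgeR estimates across genes.

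Among the PDZ-LIM genes, those with several LIM domains are Pdlim7, Pdlim5 and Ldb3. Pdlim7 encodes Enigma, a scaffold on actin filaments that also binds kinases and signaling receptors (chr13:55495795-55513676, minus strand). In atria it had 35.7, 43.9 and 41.1 CPM in controls and 13.3, 13.1 and 12.9 CPM in CUG960 +dox mice. Ventricles had 41.1, 40.5 and 35.5 CPM in controls and 11.7, 15.3 and 13.0 CPM in CUG960 +dox mice. Every CUG960 library lay far below every control library, and the chambers overlapped within a genotype. The log2 fold change was -1.62 (SE 0.08, adjusted P = 3.8e-05) in atria and -1.55 (SE 0.11, adjusted P = 8.7e-05) in ventricles, and the change did not differ detectably between chambers (difference 0.07, SE 0.15, adjusted P = 0.91). Ranked by P value, Pdlim7 was 19th of 17650 genes in atria and 33rd of 16909 in ventricles. Fewer cells of a type and less RNA per cell cannot be told apart in RNA of whole chambers. The authors list Pdlim7, in both chambers, among genes whose splicing shift brings in a premature stop codon. They ascribe its altered level to nonsense-mediated decay. Splicing was not tested here, and the 11 annotated transcripts of Pdlim7, 1 of them marked for nonsense-mediated decay, were counted together.

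Beside Pdlim7, the summed cardiomyocyte markers (Myh6, Tnnt2, Tnni3, Actc1, Ryr2) had 38886 ± 830 CPM in controls and 41687 ± 1132 CPM in CUG960 +dox mice in atria, and 46172 ± 1827 and 48262 ± 2159 CPM in ventricles. The 5 smooth muscle markers summed to 235 ± 62.1 and 297 ± 100.4 CPM in atria and to 221 ± 36.7 and 207 ± 56.7 CPM in ventricles, with Acta2 the most abundant of them. Myh6 made up most of the cardiomyocyte sum. Of the other cardiomyocyte markers, Ryr2, the calcium release channel gene, fell in ventricles from 822 ± 153 to 515 ± 39.0 CPM (log2 fold change -0.67, adjusted P = 0.0148) and had -0.53 in atria (adjusted P = 0.0298, under the fold limit). The 6 endothelial markers summed to 619 ± 57.7 and 462 ± 30.9 CPM in atria and to 782 ± 70.6 and 591 ± 23.0 CPM in ventricles, without overlap between genotypes in either chamber. Pecam1, the most abundant of them in atria, fell there (log2 fold change -0.71, adjusted P = 0.00431). In ventricles it had -0.53 (adjusted P = 0.00179, under the fold limit). Cdh5 had an adjusted P under 0.05 in both chambers (-0.46 and -0.42), and Tie1 in atria alone (-0.56), also under the fold limit. Kdr, Emcn and Egfl7 had none under 0.05. Of the smooth muscle markers Tagln rose in atria, and Myh11 and Tagln fell in ventricles. The part of these cell types in the Pdlim7 values was not tested.

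Ldb3, which encodes Cypher or ZASP, an α-actinin partner that keeps Z-discs intact, was the most abundant PDZ-LIM gene per length in each group. Its level went from 1125 ± 48.4 to 958 ± 53.3 CPM in atria and from 1030 ± 15.7 to 899 ± 47.1 CPM in ventricles. All CUG960 libraries lay below all controls in both chambers, yet neither change passed the test (log2 fold change -0.23, SE 0.07, adjusted P = 0.0532 in atria, and -0.19, SE 0.08, adjusted P = 0.157 in ventricles). Pdlim5 encodes ENH, which holds protein kinases C and D at the Z-disc. It had between 545 and 689 CPM in atria of controls and between 427 and 508 CPM in those of CUG960 +dox mice, again without overlap and again short of the threshold (log2 fold change -0.31, SE 0.11, adjusted P = 0.0932). In ventricles its libraries overlapped, with 870 ± 34.6 and 810 ± 86.5 CPM (adjusted P = 0.554).

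The PDZ-LIM genes with a single LIM domain are Pdlim1, Pdlim2, Pdlim3 and Pdlim4. Pdlim3 encodes ALP, an α-actinin-2 partner at Z-discs and intercalated discs (chr8:45885461-45919548, plus strand). Ventricles had 15.6, 13.6 and 14.7 CPM in controls and 21.3, 25.9 and 26.0 CPM in CUG960 +dox mice, so that every CUG960 +dox library was above every control. The log2 fold change was 0.74 (SE 0.11, adjusted P = 0.00338). Atria had 94.8, 74.9 and 85.5 CPM in controls and 75.5, 111 and 84.1 CPM in CUG960 +dox mice, which overlapped (log2 fold change 0.08, SE 0.14, adjusted P = 0.739). The difference between chambers was 0.65 (SE 0.19) and missed the threshold (adjusted P = 0.152), but passed it with the mouse as a replicate block (0.66, adjusted P = 0.0279). It also passed with DESeq2 and with no filter on low counts.

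Pdlim4 encodes RIL, which binds α-actinin and regulates actin stress fibers (chr11:54054928-54069014, minus strand). Ventricles had 8.46, 12.5 and 10.1 CPM in controls and 16.0, 20.2 and 15.9 CPM in CUG960 +dox mice, without overlap. The log2 fold change was 0.75 (SE 0.15, adjusted P = 0.0166), and it rested partly on single mice, with an adjusted P of 0.0629 without V120 and 0.0524 without V327. Atria had 47.5, 53.3 and 51.5 CPM in controls and 70.0, 68.6 and 62.6 CPM in CUG960 +dox mice. There too the CUG960 +dox mice were the higher ones, and the change of 0.40 (SE 0.07, adjusted P = 0.00873) fell short of the fold limit alone.

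Since Pdlim3 and Pdlim4 were atrial genes that rose in ventricles, atrial markers in the ventricles are given beside them. The summed atrial cardiomyocyte markers (Myl7, Myl4, Sln, Nppa) had 75.2, 74.9 and 149.5 CPM in ventricles of controls and 91.3, 231 and 312 CPM in those of CUG960 +dox mice, which overlapped. These sums were 0.38% of the atrial level in controls and 1% in CUG960 +dox mice. Pdlim3 in ventricles was at 17.2% and 27% of its atrial level and Pdlim4 at 20.4% and 25.9%. The part of atrial cells in the ventricular Pdlim3 and Pdlim4 values was not tested. Nppa, the gene of atrial natriuretic peptide, was the most abundant of the atrial markers and the only one of the 4 that passed the threshold in ventricles, where it rose. Of the ventricular sums Nppa held 48.6, 54.4 and 84.8 CPM in controls and 86.6, 224 and 151.5 CPM in CUG960 +dox mice. Myl7, Myl4 and Sln thus weighed most in V334 among controls and in V123 among CUG960 +dox mice, where Myl7 had 18.8 ± 32.1 CPM over the group.

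Pdlim1 encodes CLP36, a cytoskeletal adaptor on α-actinin. It had 21.8 ± 0.484 and 22.6 ± 0.316 CPM in atria of controls and CUG960 +dox mice and 76.4 ± 2.93 and 82.2 ± 3.70 CPM in ventricles. The ventricular libraries did not overlap, but the log2 fold change of 0.11 (SE 0.07) had an adjusted P of 0.385. Pdlim2 encodes mystique, which also promotes the degradation of nuclear signaling factors, and had the lowest level of the 10 genes per kb of merged exons in all 4 groups. Per kb of the longest transcript, Pdlim7 was below it in atria of CUG960 +dox mice (3.67 against 4.27 CPM per kb). Its means were 13.7 ± 2.24 and 11.3 ± 1.58 CPM in atria (adjusted P = 0.207) and 7.16 ± 0.757 and 8.53 ± 1.28 CPM in ventricles (adjusted P = 0.279), with overlapping libraries in both.

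The plot of changes by chamber sets the atrial change of each gene against the ventricular one. Atria and ventricles came from the same mice, so the 2 axes are not independent.

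**Figure D2:**
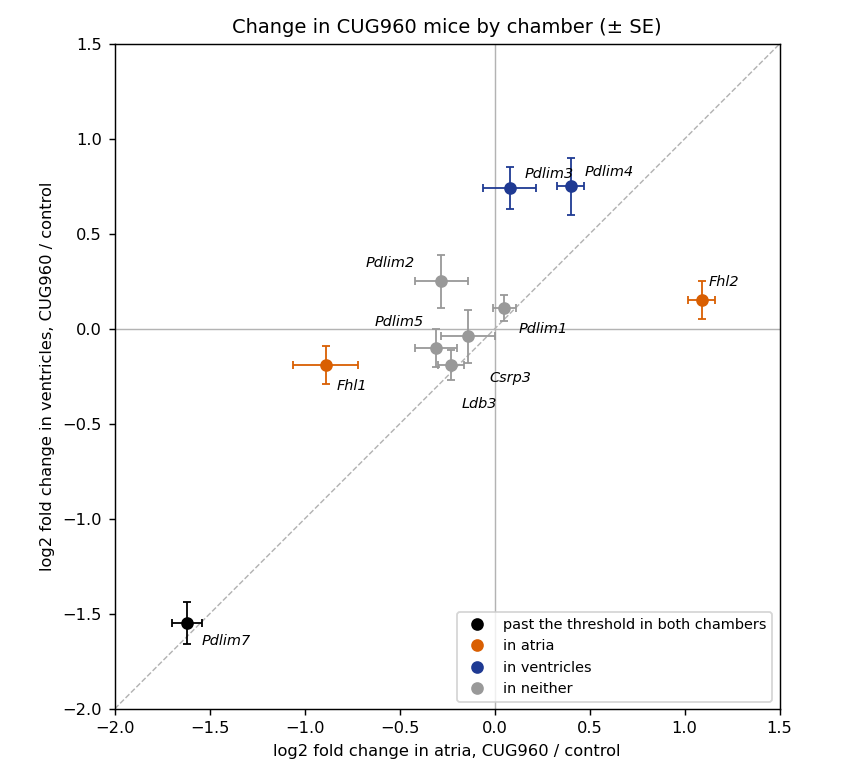
Log2 fold change of CUG960 +dox mice over controls in atria (x axis) and ventricles (y axis) for the 10 genes, with bars of 1 SE and a dashed line of equal change. Pdlim7 lies on the line at -1.62 and -1.55, Fhl2 and Fhl1 lie apart from it on the atrial axis, and Pdlim3 and Pdlim4 lie above it.

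Fhl2 encodes a coactivator and sarcomere adaptor that binds titin and restrains calcineurin and ERK signaling (chr1:43123074-43196984, minus strand). Atria of controls had 72.5, 67.5 and 73.2 CPM and atria of CUG960 +dox mice 152, 142 and 160 CPM, with each CUG960 +dox mouse far above every control. The log2 fold change was 1.09 (SE 0.07, adjusted P = 7.6e-05). Ventricles had 1147, 1139 and 968 CPM in controls and 1100, 1245 and 1265 CPM in CUG960 +dox mice, which overlapped (log2 fold change 0.15, SE 0.10, adjusted P = 0.379). The changes differed between chambers by -0.94 (SE 0.12, adjusted P = 0.00226). In the main edgeR fit Fhl2 was the 1 gene of the 10 that passed this test of a difference, against 1.38% of 18327 genes. Pdlim3 passed too with DESeq2, with no filter on low counts and with the mouse as a block, and Fhl1 passed without V333. The ventricular cardiomyocyte markers (Myl2, Myl3, Irx4) summed to 30.0 ± 21.2 CPM in atria of controls and to 17.8 ± 1.74 CPM in atria of CUG960 +dox mice, 0.195% and 0.109% of their ventricular level. Fhl2 in atria was at 6.55% and 12.6% of its ventricular level. The part of ventricular cells in the atrial Fhl2 values was not tested.

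Fhl1 encodes a muscle LIM protein that binds titin and takes part in signaling on stretch (chrX:56731787-56793346, plus strand). Atria had 276, 175 and 285 CPM in controls and 119.2, 137 and 141 CPM in CUG960 +dox mice. The groups did not overlap, although control V333 lay well below the other controls. The log2 fold change was -0.89 (SE 0.17, adjusted P = 0.0127), and the adjusted P was 0.0588 without V119. Ventricles had 179, 149 and 155 CPM in controls and 126, 138 and 158 CPM in CUG960 +dox mice, which overlapped (log2 fold change -0.19, SE 0.10, adjusted P = 0.288). The difference between chambers of 0.70 (SE 0.22) missed the threshold (adjusted P = 0.185, and 0.0499 without V333).

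Set against each other per length, as CPM per kb of merged exons, Fhl2 was at 0.592 ± 0.143 of the Fhl1 level in atria of controls and at 2.25 ± 0.238 of it in atria of CUG960 +dox mice. Fhl2 was thus the lesser FHL transcript in each control atrium and the greater one in each CUG960 +dox atrium. In ventricles it exceeded Fhl1 by a factor of 13.3 ± 1.47 in controls and 16.8 ± 1.01 in CUG960 +dox mice.

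**Figure D3:**
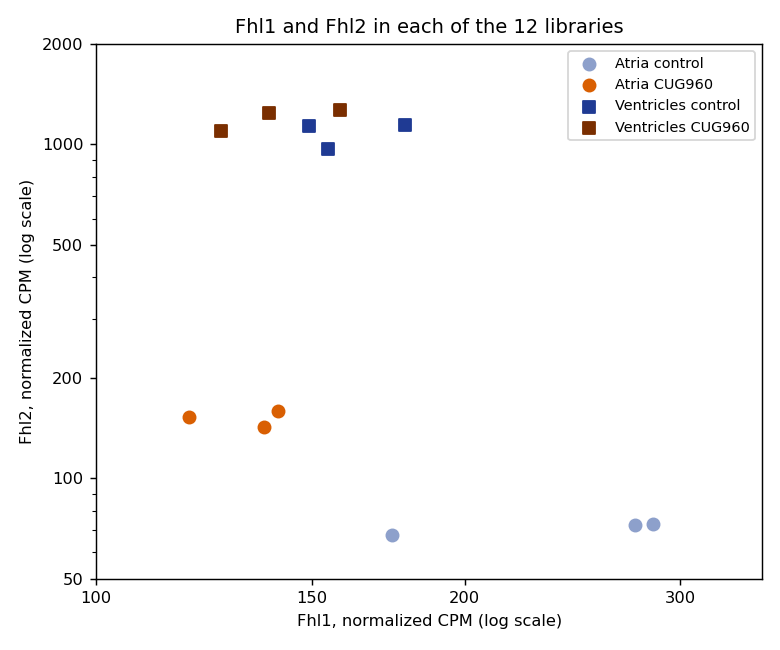
Fhl1 (x axis) and Fhl2 (y axis) in normalized CPM on log scales, 1 point per library. The atrial libraries of CUG960 +dox mice have more Fhl2 (142 to 160 CPM) and less Fhl1 (119.2 to 141 CPM) than those of controls (67.5 to 73.2 CPM and 175 to 285 CPM), and the ventricular libraries lie together near the top.

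Csrp3 encodes MLP, a cysteine-rich LIM protein of the Z-disc that binds telethonin and α-actinin. It had 761 ± 116 and 691 ± 116 CPM in atria of controls and CUG960 +dox mice (adjusted P = 0.549) and 1250 ± 147 and 1215 ± 218 CPM in ventricles (adjusted P = 0.894). The libraries overlapped in both chambers, and CUG960 mouse V119 had the lowest ventricular value, 965 CPM.

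Levels also differed between chambers within each genotype. Comparing ventricles with atria, 3 of the 10 genes were higher in ventricles of controls, against 16.6% of 17451 genes, and 4 were lower, against 18.3%. Fhl2 was 15.3-fold higher in ventricles of controls (log2 fold change 3.94, SE 0.10, adjusted P = 7.6e-08), Pdlim1 3.52-fold and Csrp3 1.65-fold, although Csrp3 fell short of the fold limit without V333 (log2 fold change 0.54, adjusted P = 0.0105). Pdlim3 was 5.79-fold lower in ventricles, Pdlim4 4.89-fold, Pdlim2 1.91-fold and Fhl1 1.52-fold. The Fhl1 libraries of the chambers overlapped, and with the mouse as a replicate block its log2 fold change of -0.57 no longer met the fold limit (adjusted P = 0.00417). The difference also missed the threshold without V327 (-0.59, adjusted P = 0.0838) and without V334 (-0.45, adjusted P = 0.0927).

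In CUG960 +dox mice 4 of 10 genes were higher in ventricles, against 16.4% of 17559 genes, and 2 were lower, against 17.2%. Fhl2 was 8.03-fold higher there (log2 fold change 3.01, SE 0.09, adjusted P = 5.5e-08), Pdlim1 3.67-fold, Csrp3 1.78-fold and Pdlim5 1.70-fold. Pdlim3 was 3.67-fold and Pdlim4 3.83-fold lower in ventricles. Pdlim2 had a log2 fold change of -0.39 (adjusted P = 0.0393, under the fold limit) and Fhl1 of 0.10 (adjusted P = 0.401). Pdlim5 in controls missed only the fold limit (log2 fold change 0.55, adjusted P = 0.00197), and Ldb3 and Pdlim7 passed in neither genotype. These comparisons use the same libraries as those between genotypes, so the values of Fhl1, Fhl2 and Pdlim3 repeat what the test of the difference between chambers measured. That test gave 0.53 (SE 0.21, adjusted P = 0.307) for Pdlim2, 0.34 (SE 0.18, adjusted P = 0.478) for Pdlim4 and values between 0.04 and 0.21 for Pdlim1, Pdlim5, Pdlim7, Ldb3 and Csrp3.

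Levels of different genes were compared per length. In control atria the order was Csrp3 (285 ± 43.5 CPM per kb), Ldb3 (184 ± 7.94), Pdlim5 (67.1 ± 9.09), Fhl1 (66.0 ± 16.5), Fhl2 (37.5 ± 1.64), Pdlim4 (19.8 ± 1.15), Pdlim3 (16.5 ± 1.94), Pdlim7 (8.30 ± 0.867), Pdlim1 (4.15 ± 0.092) and Pdlim2 (3.05 ± 0.50). Libraries of the neighbors Pdlim5 and Fhl1 overlapped in this order, and those of the other neighbors did not. In control ventricles Fhl2 led with 572 ± 53.2 CPM per kb, ahead of Csrp3 with 468 ± 55.2 and Ldb3 with 169 ± 2.56, followed by Pdlim5 (98.0 ± 3.89), Fhl1 (43.3 ± 4.23), Pdlim1 (14.5 ± 0.557), Pdlim7 (8.05 ± 0.634), Pdlim4 (4.04 ± 0.783), Pdlim3 (2.85 ± 0.198) and Pdlim2 (1.60 ± 0.169), with no overlap between neighbors. In CUG960 +dox mice Fhl2 was at rank 3 in atria with 79.7 ± 4.60 CPM per kb, ahead of Pdlim5 with 54.1 ± 5.13. Pdlim7 was at rank 9 in both chambers, with 2.70 ± 0.0427 CPM per kb in atria, next to Pdlim2 with 2.51 ± 0.353, whose libraries overlapped it, and with 2.75 ± 0.381 in ventricles. Per kb of the longest transcript Fhl2 and Pdlim5 were close in these atria (96.8 and 95.7 CPM per kb), Pdlim4 stood above Fhl1 there, and Pdlim7 was at rank 10, while the order was the same in both groups of controls and in ventricles of CUG960 +dox mice.

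**Figure D4:**
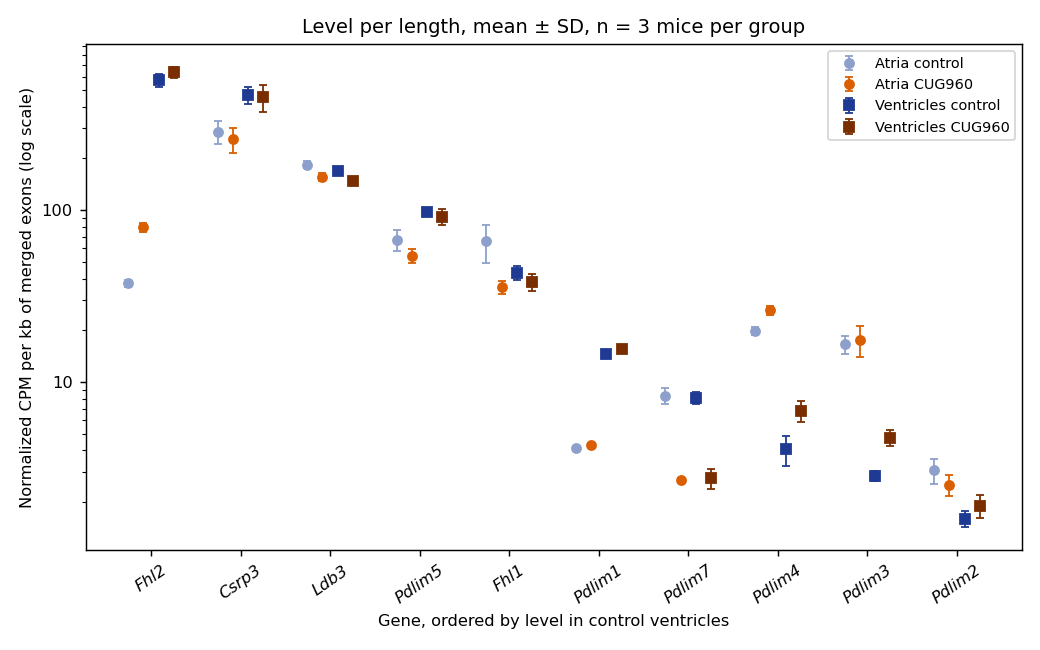
Mean ± SD (n = 3 mice) of CPM per kb of merged exons on a log scale for the 10 genes, ordered by the level in control ventricles. Fhl2 spans from 37.5 CPM per kb in control atria to 634 in ventricles of CUG960 +dox mice, and Pdlim7 drops from 8.30 to 2.70 in atria and from 8.05 to 2.75 in ventricles.

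Of the summed CPM per kb of the 7 PDZ-LIM genes, Ldb3 held 60.8% ± 1.47 in control atria and 59.4% ± 1.11 in atria of CUG960 +dox mice, and 56.7% ± 0.997 and 54.5% ± 1.18 in ventricles. Pdlim5 held 22.1% ± 2.02 and 20.4% ± 0.802 in atria and 32.9% ± 0.697 and 33.7% ± 1.86 in ventricles. The share of Pdlim7 went from 2.74% ± 0.356 to 1.03% ± 0.0744 in atria and from 2.70% ± 0.155 to 1.02% ± 0.114 in ventricles. The Pdlim4 share went from 6.55% ± 0.567 to 9.95% ± 1.04 and from 1.36% ± 0.262 to 2.51% ± 0.34. Ldb3 and Pdlim5 therefore held most of the PDZ-LIM transcript in each group, and the genes that changed were minor ones. All 10 genes together took 0.343% ± 0.0287 and 0.306% ± 0.0174 of the counts in atria and 0.378% ± 0.0167 and 0.397% ± 0.0366 in ventricles.

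Other genes of the same biology were described by 3 lists. Of 41 other LIM domain genes 40 were tested, and in atria 1 rose and 2 fell, 7.5% of them against 5.49% of all genes, while in ventricles 1 rose and 1 fell, 5% against 4.75%. Their median log2 fold change was -0.08 in atria and -0.13 in ventricles, against -0.01 over all genes tested in each. By the adjusted P value alone in edgeR's test, 12 of the 40 passed in atria, against 14.6% of all genes, and 7 in ventricles, against 9.94%. At an unadjusted P value under 0.05 in that test, 9 were higher and 13 lower in atria, against 15.4% and 14.8% of all genes. In ventricles 7 were higher and 10 lower, against 13.5% and 12.2%. Fhl4, a scarce FHL family member, rose from 1.15 to 1.92 CPM in atria and from 0.797 to 1.53 CPM in ventricles (log2 fold change 0.74 and 0.94). Its call was lost in atria without any 1 of the 6 mice (adjusted P between 0.0539 and 0.123) and in ventricles without V119 (0.0555) or V123 (0.0564). Lims2, the integrin adaptor PINCH2, fell from 108 ± 18.3 to 62.1 ± 8.33 CPM in atria and from 129 ± 14.7 to 71.0 ± 13.5 CPM in ventricles (-0.80 and -0.86). Crip2, a small cysteine-rich LIM protein, fell in atria from 538 ± 17.2 to 343 ± 22.8 CPM (-0.65, adjusted P = 9.8e-04), and in ventricles its 679 ± 84.4 and 463 ± 80.6 CPM missed the fold limit alone (-0.55, adjusted P = 0.0330, no overlap). The part of the endothelial marker sums, given beside Pdlim7, in the values of Lims2 and Crip2 was not tested.

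Of 39 other Z-disc genes 38 were tested, and in atria 0 rose, against 3.37% of all genes, and 4 fell, against 2.12%. In ventricles 2 rose, against 3%, and 2 fell, against 1.76%, and the median log2 fold change was -0.18 in atria and -0.03 in ventricles. By the adjusted P value alone in edgeR's test, 14 of the 38 passed in atria, against 14.6% of all genes, and 12 in ventricles, against 9.94%. At an unadjusted P value under 0.05 in edgeR's test, 5 were higher and 18 lower in atria, against 15.4% and 14.8% of all genes, and 10 were higher and 5 lower in ventricles, against 13.5% and 12.2%. By DESeq2 0 passed the threshold upward and 4 downward in atria, against 3.66% and 2.61%, and 2 upward and 2 downward in ventricles, against 3.57% and 2.44%. Ankrd23, a stretch-responsive ankyrin repeat protein that binds titin, fell in both chambers, from 105.0 ± 33.9 to 28.8 ± 11.8 CPM in atria (log2 fold change -1.87, SE 0.31) and from 625 ± 97.3 to 344 ± 76.6 CPM in ventricles (-0.86, SE 0.16), where the adjusted P was 0.0122, and 0.0553 with all 12 libraries in a single fit. The actin-binding Xin proteins of the intercalated disc fell in atria, Xirp2 from 454 ± 10.4 to 229 ± 27.1 CPM (-0.99, adjusted P = 5.2e-04) and Xirp1 from 429 ± 185 to 208 ± 6.48 CPM (-1.05, adjusted P = 0.0408). The Xirp1 call was lost without V119, V120, V123, V327 or V334 (adjusted P between 0.0845 and 0.121). Murc, the muscle cavin also called Cavin4, fell there from 37.4 ± 3.95 to 16.0 ± 5.37 CPM (-1.23). In ventricles Ankrd1, the related stretch-responsive protein CARP, rose from 1141 ± 173 to 2543 ± 235 CPM (1.16, SE 0.12, adjusted P = 6.9e-04), and Myot, which encodes the Z-disc protein myotilin, fell from 33.2 ± 3.08 to 19.0 ± 3.46 CPM (-0.80). The other ventricular gene that rose, Ankrd2, had a mean under 1 CPM in both genotypes. None of the other genes named here passed edgeR's test of the difference between chambers. The adjusted P was 0.0653 for Xirp2, 0.104 for Xirp1, 0.113 for Murc, 0.298 for Ankrd23, 0.111 for Ankrd1 and 0.357 for Myot. Of 16 kinase, phosphatase and transcription partners all were tested, and 1 rose in atria (6.25%, against 3.37% of all genes), Prkd1 for protein kinase D1, from 2.69 ± 0.354 to 4.92 ± 0.153 CPM (0.87, adjusted P = 0.00401). Prkd1 did not pass the test of the difference between chambers (adjusted P = 0.0804). The threshold was passed by 0 of the partners in the downward direction in atria, against 2.12%, and by 0 in either direction in ventricles, against 4.75%. The calcineurin subunit gene Ppp3ca had an adjusted P value under 0.05 in edgeR's test in both chambers and missed the fold limit (log2 fold change 0.41 in atria, adjusted P = 0.00439, and 0.28 in ventricles, adjusted P = 0.0363). By the adjusted P value alone 4 of the 16 passed in atria, against 14.6% of all genes, and 1 in ventricles, against 9.94%. At an unadjusted P value under 0.05 in edgeR's test, 6 of the 16 were higher and 3 lower in atria, against 15.4% and 14.8% of all genes. In ventricles 3 were higher and 1 lower, against 13.5% and 12.2%. By DESeq2 1 passed the threshold upward and 0 downward in atria, against 3.66% and 2.61%, and 0 passed it in either direction in ventricles, against 3.57% and 2.44%.

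The chamber labels were borne out by markers, with the atrial list at 26249 ± 894 CPM in atria and 99.9 ± 43.0 CPM in ventricles of controls and the ventricular list at 15325 ± 1849 CPM in ventricles of controls. Fibroblast markers summed to 2407 ± 205 and 2030 ± 172 CPM in atria of controls and CUG960 +dox mice and to 1367 ± 114 and 1365 ± 10.8 CPM in ventricles. Mesothelial markers had 257 ± 11.2 and 239 ± 63.4 CPM in atria but 7.26 ± 0.492 and 5.38 ± 1.14 CPM in ventricles. Leukocyte markers had 83.5 ± 22.8 and 73.3 ± 8.40 CPM in atria and 38.3 ± 4.81 and 33.9 ± 4.99 CPM in ventricles. Adipocyte markers had 7.09 ± 5.63 and 3.29 ± 1.70 CPM in atria and 4.32 ± 0.834 and 1.43 ± 1.05 CPM in ventricles, where Plin1 fell. Skeletal muscle markers, of which Myh4 had 0 counts in 4 control libraries, summed to at most 2.25 CPM in any library, and Tnnt3 of that list fell in atria. In atria the atrial list had 21161 ± 1169 CPM in CUG960 +dox mice, below that of the controls, and the ventricular list in ventricles had 16353 ± 601 CPM. The lower atrial sum lay in 2 of its 4 genes, Nppa and Myl4. Nppa had 15892 CPM in controls and 11870 CPM in CUG960 +dox mice, and Myl4 had 6145 and 5014 CPM. In edgeR's test Nppa in atria missed the fold limit alone (log2 fold change -0.42, adjusted P = 0.0083, no overlap). Myl4 did not pass either (-0.29, adjusted P = 0.0849). Myl7 had 2841 and 2910 CPM and Sln 1370 and 1366 CPM. In ventricles the atrial list summed to 212 ± 112 CPM in CUG960 +dox mice, where Nppa rose from 62.6 to 154 CPM (2.46-fold, adjusted P = 0.0314). How far these lists bear on the 10 genes was not tested.

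For each gene that passed the threshold between genotypes, the 2 other genes most like it were sought by Pearson's r of log2(CPM + 1) over the 12 libraries among 13112 genes. The libraries share 6 mice and fall into 4 groups, so r mostly reflects the group means. Pdlim7 was nearest to Cyfip1 (r = 0.983) and Rabepk (0.981). Cyfip1, a subunit gene of the WAVE complex that drives actin branching, had 46.6 and 23.7 CPM in atria and 45.5 and 24.6 CPM in ventricles of controls and CUG960 +dox mice. Fhl2 was nearest to Gyg (0.996), which encodes glycogenin, and Hrasls (0.996). Pdlim3 was nearest to Gpx3 (0.994) and Ninl (0.991), and Pdlim4 to Trim11 (0.995) and Aldh1b1 (0.993). Fhl1 had the weakest matches, 2610028H24Rik (0.932) and Nmrk2 (0.89), a nicotinamide riboside kinase gene that went from 14.2 to 2.16 CPM in atria.

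Reads could be shared with few other loci. Transcripts of the processed copy Gm5864 matched Pdlim1 at 97.0% over 981 bases but had at most 31 counts in a library. Gm6009 matched Pdlim5 at 93.2% over 280 bases and had 0 counts. The microRNA Mir6945, on the same strand as Pdlim7 and touching its exons, had 0 counts. The pseudogene Gm8210 lies opposite to Fhl2 without touching its exons and had between 961 and 6969 counts, with the lowest values in both chambers in control V333.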

How the data were processed

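RNA-Seq of poly(A)-selected RNA was done on 12 libraries with a stranded kit and paired-end reads. The authors aligned the reads to GRCm38 (mm10), estimated counts per gene with RSEM 1.3.1 on an Ensembl annotation of that build, and deposited these expected counts without scaling or a filter. The values are whole numbers (0 were not), so no rounding was needed, and 0 columns were left unused. Whether the counting used strand is not given in the sources used here. Isoforms are summed per gene.

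Genes were filtered by filterByExpr and scaled by TMM, and groups were compared with edgeR 4.0.16 (R 4.3.3) by its quasi-likelihood test, genotypes within each chamber and chambers within each genotype, with Benjamini-Hochberg adjustment over all genes tested. The difference between chambers was the interaction term over 12 libraries, with no fold limit. Exon lengths and coordinates are from GENCODE M21 on GRCm38, a later release than the counts. The 10 genes and the gene lists were chosen with earlier results of these data known. Named genes were the 10 members, list genes past the threshold at a mean of at least 1 CPM (at most 6 per list, chamber and direction), and the 2 most similar genes. Ankrd2, Ppp3ca, single marker genes and overlapping or copied loci are named outside this rule, after their values were seen.

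The chambers came from the same mice. After group means were removed, r across genes was between 0.051 and 0.355 for the chambers of 1 mouse and between -0.421 and 0.17 for those of 2 mice. The mouse as a replicate block was an alternative, as were DESeq2 1.42.0, RLE and upper quartile scaling, no filter, at least 10 counts per library, a single fit of 12 libraries, other fold limits, other lengths and leaving out each mouse. The steps were tested on simulated data, with the same dispersion for all genes and no mouse effect. Of 100 genes changed by a log2 fold of 1, the test of the difference between chambers recovered 76. The other comparisons recovered 98 or 99. In the study's own libraries replicates were separate mice, and the 10 genes had at least 704 counts in each library. Tables and figures used Python 3.11.15 with matplotlib 3.10.9, numpy 2.4.6 and pandas 2.3.3, and similar copies were sought with blastn 2.17.0.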

Additional observations from a re-analysis of the deposited data

Results flagged for a closer look

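In the main unpaired edgeR fit, Fhl2 was the 1 gene of the 10 that passed the test of the difference between chambers itself. Its change in CUG960 +dox mice differed between them by -0.94 on the log2 scale (SE 0.12, adjusted P = 0.00226). Its log2 fold change was 1.09 in atria, where each of the 3 CUG960 +dox mice was above each control, and 0.15 in ventricles, where the genotypes overlapped. With the mouse as a replicate block the value for Fhl2 was -0.94 (adjusted P = 0.00909), and Pdlim3 passed too (0.66, adjusted P = 0.0279). Unpaired, Pdlim3 also passed with DESeq2 and with no filter on low counts, and Fhl1 passed without V333.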

How the results depend on the processing

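Pdlim7 and Fhl2 kept their calls between genotypes under each alternative other than a log2 fold change of at least 1.5, where Pdlim7 alone remained, 1 gene in atria and 1 in ventricles. Scaling by RLE or upper quartile moved the median of all genes by at most 0.036. That stricter limit left 216 genes in atria, 199 in ventricles, 2233 between chambers of controls (4 of the 10 genes) and 2200 between chambers of CUG960 +dox mice, and no fold limit gave 2573, 1680, 9726 and 9517. For the difference between chambers, DESeq2 called 660 genes against 253, and leaving out 1 mouse gave between 74 and 131. Of the 10 genes it called 2, Fhl2 and Pdlim3, with DESeq2, with no filter on low counts and with the mouse as a replicate block. Leaving out 1 mouse it called 1 or 2, the second being Fhl1 without V333. Apart from this and Fhl1 between the chambers of controls (log2 fold change -0.57), the paired fit changed no call of the 10 genes. Small log2 fold changes changed sign when 1 mouse was left out. They ranged from -0.09 to 0.20 for Pdlim3 in atria, from -0.13 to 0.10 for Csrp3 in ventricles, from -0.16 to 0.04 and from -0.09 to 0.14 for Pdlim7 between the chambers of controls and of CUG960 +dox mice, and from -0.04 to 0.19 for Pdlim7 and from -0.06 to 0.29 for Csrp3 in the difference between chambers. The cause was not tested. With the longest transcript as length or 1 mouse left out, 36 levels per length moved by more than 1 SD and 124 did not, and with another length or none 47 shares moved and 9 did not. Over all comparisons, 605 of the values for the 10 genes under an alternative kept direction and side of the threshold, 8 became significant, 16 ceased to be and 11 reversed.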
